A study of Homo sapiens with 8 samples.

Results

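The nuclear genes of oxidative phosphorylation were examined for open chromatin at their promoters during cardiac differentiation. They were chosen by symbol, as autosomal protein-coding genes of the GENCODE annotation (GRCh38) that begin with NDUFA, NDUFB, NDUFC, NDUFS, NDUFV, UQCR, ATP5 or COX followed by 4 to 8, with SDHA to SDHD and CYC1. The rule found 96 of 19103 autosomal protein-coding genes, and no accessibility value entered it. By symbol they comprised 35 genes of complex I, 4 of complex II, 9 of complex III, 18 of complex IV (with NDUFA4 and NDUFA4L2), 17 of complex V, 9 assembly factors or regulators (NDUFAF1 to NDUFAF8 and ATP5IF1), 2 readthrough genes and 2 retrocopies. The readthrough genes ATP5MF-PTCD1 and NDUFC2-KCTD14 begin at the starts of ATP5MF and NDUFC2 and hold the same peaks.

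ATAC-seq, in which the Tn5 transposase inserts sequencing adapters into open chromatin, was carried out on RUES2, an established human embryonic stem cell (hESC) line, at 4 stages with 2 replicate libraries each. The stages were hESC (day 0, collected after a day in E8 medium with the Wnt pathway activator CHIR-99021), mesoderm (MES, day 2, in RBA medium, which is RPMI with BSA and ascorbic acid, with CHIR-99021), cardiac progenitors (CP, day 5, after the Wnt pathway inhibitor Xav-939 in RBA) and cardiomyocytes (CM, day 14, after RPMI with B27). All 8 libraries thus came from a single line, all cells had been exposed to CHIR-99021, and the labels mention no sorting of cells. The peak lists held from 54018 (CM replicate 2) to 150915 (hESC replicate 2) autosomal peaks, and the other 6 lists held 89801 to 150362. Because a deeper library passes the authors' q-value threshold at weaker sites, a missing peak was read only as a peak that did not pass in that library. List length did not simply follow the mean background recovered from the lists. That background was 4.57 in CM replicate 1, with 89801 peaks, and 4.62 in hESC replicate 2, with 150915. At the mean background of a library, the lowest fold that passed was between 2.63 and 3.17.

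Promoter peaks of the stage markers separated the stages in part. Of the 6 pluripotency markers, NANOG had a peak in the 4 hESC and MES libraries and in no CP or CM library, POU5F1 and DPPA4 lacked one in a single CM library, and SOX2, LIN28A and ZFP42 had one in all 8. SOX2 had folds of 4.42 and 4.90 in hESC and 6.01 and 6.19 in CM, without overlap (log2 change 0.43, adjusted p = 0.0812). MYH6, which encodes a cardiac myosin heavy chain, had one in CP replicate 2 and in both CM libraries, while MYH7, its ventricular relative, had none in any library. MYL7, also a cardiomyocyte marker, had none in either hESC library and one in each of the 6 later libraries. Of the 5 endoderm markers, SOX17 and FOXA1 had a peak in all 8 libraries, FOXA2 and TTR in 7 and AFP in none. Of the 4 endothelial markers, KDR had one in all 8 (up to 10.9-fold), TEK in 7, PECAM1 in 2 and CDH5 in none. Of the 6 mesoderm markers, 5 had one in all 8, and MSGN1 had none in CM. Of the 6 progenitor markers, 5 had one in all 8, and GATA4 lacked one in hESC replicate 1. Of the 5 stromal or smooth muscle markers, 4 had one in all 8, and DCN had none in CM. With missing peaks at the lowest fold listed, limma called NANOG, MSGN1 and DCN lower and MYH6 and MYL7 higher from hESC to CM, against 4.04% of all genes. Of the 8 cardiomyocyte markers, 5 had a peak in all libraries, hESC included, so that for these 5 the presence of a promoter peak did not by itself mark a cell type. ACTN2 had folds of 9.22 and 8.49 in hESC and 6.99 and 7.26 in CM. TTN had 9.43 and 10.3 against 8.25 and 8.54, and RYR2 had 8.48 and 7.90 against 7.42 and 6.72. These were lower in CM without overlap, NKX2-5 was higher (3.04 and 3.57 against 3.96 and 4.57), and TNNT2 overlapped. None of the 5 was called by limma from hESC to CM. The summed fold of these 8 markers was 34.5 and 34.4 at the hESC stage, 34.4 and 36.9 at MES, 33.6 and 48.9 at CP, and 39.0 and 42.0 at CM, so that the CP libraries were its lowest and its highest. Fewer cells with an open promoter and less opening per cell cannot be told apart in these bulk libraries.

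Oxidative phosphorylation passes electrons from NADH and succinate through complexes I to IV to oxygen, and complex V uses the resulting proton gradient to make ATP. Nearly all its subunits are encoded in the nucleus, and every cell with mitochondria needs most of them. A few complex IV subunits exist in several forms encoded by separate genes. COX6A2 and COX7A1 are the heart and skeletal muscle forms of COX6A and COX7A, COX4I2 is a lung-rich form of COX4, COX6B2, COX7B2 and COX8C are testis forms, and NDUFA4L2 is a hypoxia-induced relative of NDUFA4. COX8A was counted with these tissue-restricted genes as chosen, although it is the form that most human tissues use, so that counts were also taken without it. The widely expressed counterparts were COX6A1, COX7A2, COX4I1, COX6B1 and NDUFA4.

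The promoter of COX6A2 and those of 4 members to which the results return are shown as the 200 bases before the start of the gene in RefSeq (GRCh38.p14), 5′ to 3′ on the strand of the gene. COX6A1 is the widely expressed partner of COX6A2, NDUFB10 is the member called by the main measure, COX6B2 is a testis form called by other measures, and ATP5PO, the stalk subunit of ATP synthase, held one of the highest promoter peaks. Capitals mark exact matches, on either strand, to the consensus sequences spelled out further on.
COX6A2 (chr16:31428361-31428560, minus strand): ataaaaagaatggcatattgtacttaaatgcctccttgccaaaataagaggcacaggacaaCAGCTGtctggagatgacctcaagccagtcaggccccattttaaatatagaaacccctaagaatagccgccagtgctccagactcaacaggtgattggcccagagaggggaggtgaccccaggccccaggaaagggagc
COX6A1 (chr12:120437913-120438112, plus strand): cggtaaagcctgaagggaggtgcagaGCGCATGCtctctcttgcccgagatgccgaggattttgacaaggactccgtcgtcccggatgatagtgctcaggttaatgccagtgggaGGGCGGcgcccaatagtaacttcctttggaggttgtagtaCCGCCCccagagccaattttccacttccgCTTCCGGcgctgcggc
COX6B2 (chr19:55354720-55354919, minus strand): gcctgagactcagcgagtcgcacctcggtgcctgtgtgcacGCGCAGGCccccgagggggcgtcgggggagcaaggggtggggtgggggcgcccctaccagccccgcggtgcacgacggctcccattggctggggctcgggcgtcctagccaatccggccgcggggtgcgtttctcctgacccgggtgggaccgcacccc
NDUFB10 (chr16:1959338-1959537, plus strand): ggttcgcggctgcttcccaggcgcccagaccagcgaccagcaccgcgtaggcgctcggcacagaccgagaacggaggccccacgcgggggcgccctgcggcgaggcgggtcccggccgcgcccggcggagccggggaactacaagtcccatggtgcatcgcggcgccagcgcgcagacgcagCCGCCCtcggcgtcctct
ATP5PO (chr21:33915805-33916004, minus strand): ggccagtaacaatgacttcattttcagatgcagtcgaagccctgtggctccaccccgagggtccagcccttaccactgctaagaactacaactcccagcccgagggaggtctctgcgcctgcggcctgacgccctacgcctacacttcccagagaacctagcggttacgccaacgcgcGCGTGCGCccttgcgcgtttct
In these 200 bases COX6A2 held a single match to the exact strings searched. It was the E-box CAGCTG at bases 139 to 134 before the start, which reads the same on both strands. Other forms of these sites were not searched. COX6A1 held an NRF1 match, an ETS match and 2 SP matches, COX6B2 and ATP5PO held an NRF1 match each, and NDUFB10 held an SP match.

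A promoter peak was defined as a deposited peak overlapping the 1 kb on either side of any start site (TSS) of a protein-coding transcript of the gene. Of the 96 members, 89 had a promoter peak in all 8 libraries, against 71.5% of all autosomal protein-coding genes. All 35 genes of complex I, all 4 of complex II, all 9 of complex III, all 17 of complex V and all 9 assembly factors or regulators were among them. The 7 others were 5 of the 18 complex IV genes and both retrocopies. COX7B2, NDUFA4L2 and the retrocopy ATP5MGL had no promoter peak in any library, as did 13.7% of all genes. COX6A2, COX4I2, COX8C and the retrocopy UQCRHL had one in some libraries. Per library, 89 to 93 members held a peak (92.7% to 96.9%), while the share of all genes ran from 73.2% in CM replicate 2 to 82.3% in hESC replicate 2.

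All 75 structural subunits outside the tissue-restricted list had a peak in every library at every stage. The list was chosen with earlier results of these data known, so that this split is a description and not a test. Of the 8 genes on that list, 3 and 6 had one in the 2 hESC libraries, 4 and 5 at the MES stage, 4 and 4 at CP, and 4 and 3 at CM. A peak in both libraries of a stage was present for 3 of 8 at the hESC stage, 4 at MES, 3 at CP and 3 at CM, or for 2, 3, 2 and 2 of 7 without COX8A. In these lists of unequal length the number did not rise towards CM. The library with the most restricted genes, hESC replicate 2, was also the one with the longest peak list. When every list was cut to its 54018 peaks of highest −log10 q, 2 or 3 restricted genes remained in each library: COX8A and COX6B2 in all 8, and COX7A1 in MES replicate 1, CP replicate 1 and both CM libraries. Both hESC libraries thus held 2 and both CM libraries 3, the difference being COX7A1. COX6A2, COX4I2 and COX8C were in none of the shortened lists.

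COX6A2, the heart and muscle form of COX6A, had a highest peak of 4.98-fold over the local background in hESC replicate 2, 3.85-fold in MES replicate 2 and 4.05-fold in CP replicate 1. No peak passed in the other library of these stages, nor in either CM library. The gene lies at chr16:31427731-31428360 on the minus strand, and only the peak set of hESC replicate 2 covered its start. The summits in MES replicate 2 and CP replicate 1 lay 293 and 257 bp downstream of it, inside the gene. In CM the nearest peak was 8218 bp upstream in replicate 1 and 14404 bp upstream in replicate 2. Its partner COX6A1 had folds of 10.5 and 12.4 at the hESC stage, 12.4 and 13.2 at MES, 11.3 and 13.1 at CP, and 12.0 and 12.6 at CM. Its stages overlapped. In the 3 libraries where both had a peak, that of COX6A1 was 2.48 to 3.44 times as high. With missing peaks set to the lowest fold listed in their library, the log2 change of COX6A2 from hESC to CM was −0.56 (SE 0.58, limma adjusted p = 0.616). Its 95% interval ran from −1.88 to 0.76, so that neither a rise nor a fall was detectable with these libraries.

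COX7A1, the muscle form of COX7A, had a peak in all 8 libraries, with folds of 3.46 and 4.36 at the hESC stage, 4.69 and 4.77 at MES, 4.51 and 4.55 at CP, and 4.62 and 4.20 at CM. The range of hESC overlapped that of CM. A peak covered its canonical start in 7 libraries, all but hESC replicate 1, and further peaks lay downstream within the gene (chr19:36150922-36152449, minus strand). The change from hESC to CM was 0.22 on the log2 scale (SE 0.16, adjusted p = 0.437, 95% interval −0.11 to 0.56). COX7A2 had folds of 10.4 and 11.4 at the hESC stage, 11.8 and 12.8 at MES, 12.0 and 14.2 at CP, and 12.6 and 11.4 at CM. All 6 later libraries of COX7A2 were above both hESC libraries, the nearest by a margin of the second decimal, and its change from hESC to CM was 0.18 (SE 0.10, adjusted p = 0.345). Its peak was 2.51 to 3.11 times that of COX7A1 in each of the 8 libraries, and this ratio was 3.01 and 2.62 in hESC and 2.73 in both CM libraries.

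**Figure D1:**
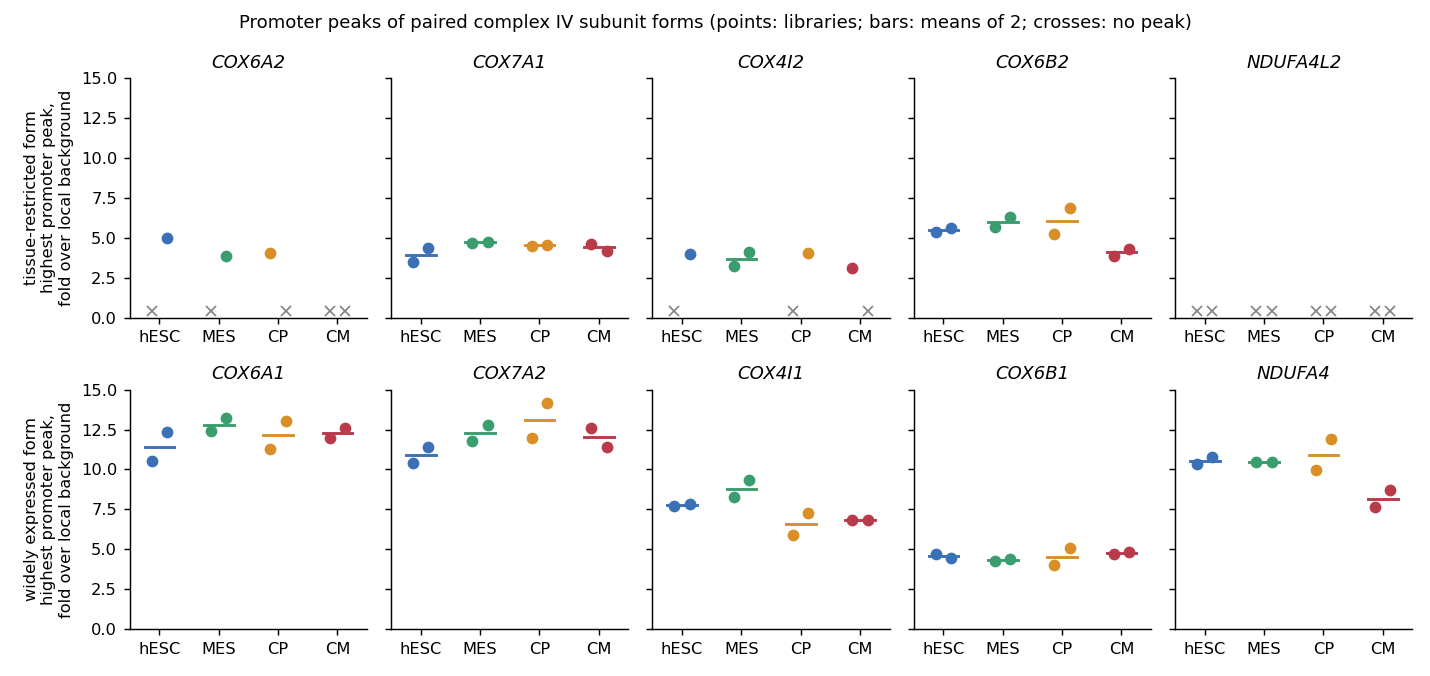
Highest promoter peak (fold over local background, vertical axes) of 5 tissue-restricted complex IV forms (top) and their widely expressed counterparts (bottom) at the 4 stages on the horizontal axes. Points are libraries, bars are means of 2 libraries and crosses mark libraries with no peak. The peaks of COX7A1 lie between 3.46 and 4.77, those of COX7A2 between 10.4 and 14.2, and NDUFA4L2 has none.

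COX4I2 had a peak in 5 libraries, of 3.97-fold in hESC replicate 2, 3.26 and 4.09 in MES, 4.04 in CP replicate 2 and 3.10 in CM replicate 1. These peaks fell at 2 places, one across the start in hESC replicate 2 and both MES libraries and one 539 to 607 bp downstream in both MES libraries, CP replicate 2 and CM replicate 1. COX4I1 had folds of 7.68 and 7.85 at the hESC stage, 8.29 and 9.32 at MES, 5.89 and 7.24 at CP, and 6.86 and 6.82 at CM. Both MES libraries were the highest, but the change from MES to CP missed the threshold (log2 change −0.45, SE 0.11, adjusted p = 0.293). NDUFA4L2 had no promoter peak, and its nearest peak was 1326 to 5582 bp from its start. NDUFA4, a subunit of complex IV despite its name, had folds of 10.3 and 10.8 at the hESC stage, 10.5 and 10.5 at MES, 9.94 and 11.9 at CP, and 7.63 and 8.68 at CM, so that both CM libraries lay below the 6 others.

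Of the testis forms, COX6B2 had a promoter peak in all 8 libraries, COX8C had one in hESC replicate 2 (4.40-fold), and COX7B2 had none, with a nearest peak at 5200 to 56160 bp. COX6B2 had folds of 5.39 and 5.61 at the hESC stage, 5.69 and 6.33 at MES, 5.25 and 6.85 at CP, and 3.87 and 4.29 at CM. Both CM libraries were again the lowest. The peak found in every library lay inside the gene (chr19:55349306-55354719, minus strand), and another peak across the start was listed in both hESC libraries, at 3.64-fold and 2.43-fold, and in no other. COX6B1, its widely expressed counterpart, had one of the lowest promoter peaks of all members, with folds of 4.72 and 4.47 at the hESC stage, 4.27 and 4.36 at MES, 3.99 and 5.09 at CP, and 4.69 and 4.83 at CM, so that its stages overlapped. The peak of COX6B1 was lower than that of COX6B2 in the 6 libraries before CM (0.689 to 0.876 times) and higher in both CM libraries (1.21 and 1.13 times).

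**Figure D2:**
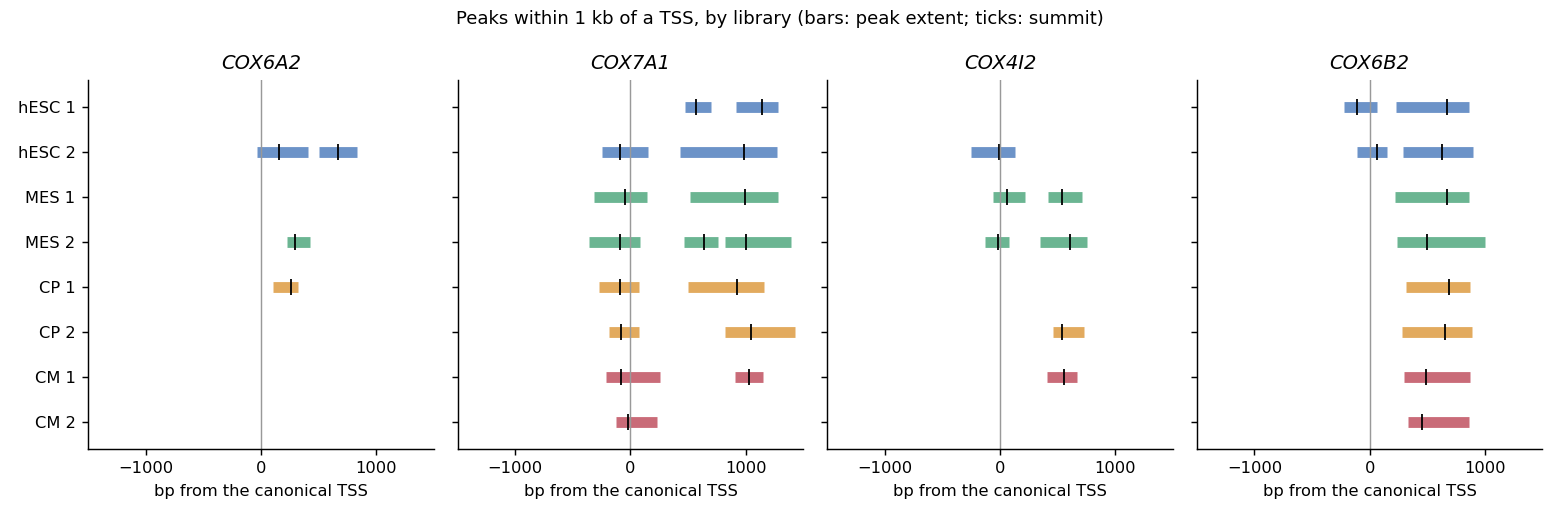
Extent (bars) and summits (ticks) of the peaks within 1 kb of a start site of COX6A2, COX7A1, COX4I2 and COX6B2, by library, against the distance in bp from the canonical start, with positive distances inside the gene. A peak covers the start of COX7A1 in 7 libraries, that of COX4I2 in 3, that of COX6B2 in 2 and that of COX6A2 in 1.

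COX8A had folds of 9.11 and 8.24 at the hESC stage, 8.38 and 9.30 at MES, 8.38 and 10.3 at CP, and 7.57 and 10.9 at CM. The 2 CM libraries were its lowest and its highest, and its mean of 8.97 lay near the median of complex IV. The canonical start itself lay under a peak in all 8 libraries for 86 of the 96 members. It did so in some libraries for 5 (COX7A1, COX4I2, COX6A2, COX6B2 and NDUFC1, a small subunit of the complex I membrane arm, in 5 libraries) and in none for COX7B2, COX8C, NDUFA4L2 and the retrocopies. Reads from the retrocopies UQCRHL and ATP5MGL can also map to their parent genes, and the authors kept only alignments of mapping quality above 30, so that a missing peak is uncertain there. UQCRHL had a peak in hESC replicate 2, of 4.09-fold.

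Among the 89 members with a peak in all libraries, the mean fold over the libraries had a median of 9.79, against 7.99 over the 13663 genes with a peak in all libraries, and 67 of the 89 lay above that median. The 76 mitochondrial ribosome genes with complete peaks (symbols MRPL and MRPS) had a median of 9.48. By complex, the median was 9.57 for complex I, 11.2 for complex II, 9.98 for complex III, 9.17 for complex IV and 10.8 for complex V. The 3 highest members were NDUFA5, an accessory subunit of the complex I matrix arm, at 14.5, ATP5PO at 14.3 and NDUFA12, another accessory subunit of complex I, at 13.6. The 3 lowest were ATP5F1D, the delta subunit of the ATP synthase stalk, at 3.52, COX7A1 at 4.38 and COX6B1 at 4.54. The order within the top 3 did not exceed their spread, since NDUFA5 ranged from 12.1 to 15.6 over the libraries and ATP5PO from 12.4 to 16.1. ATP5F1D ranged from 3.13 to 3.96. The fold divides by a background taken from the surrounding bases, which is higher where open regions lie close together, so that it is not the number of insertions at a promoter.

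**Figure D3:**
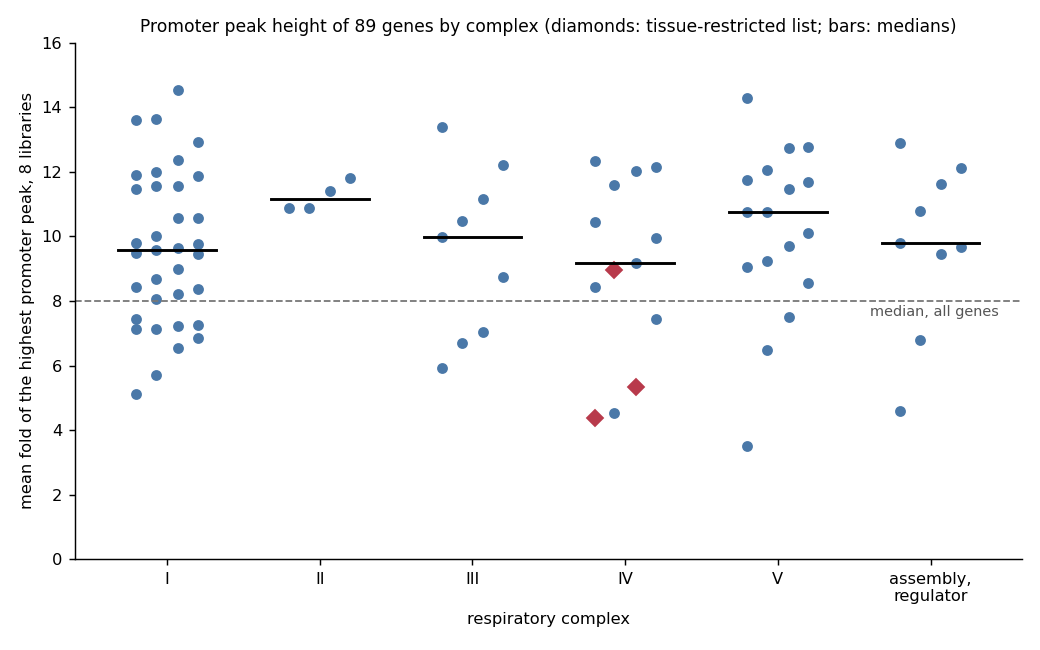
Mean fold of the highest promoter peak over the 8 libraries (vertical axis) for the members with a peak in every library, by complex (horizontal axis). Points are genes, diamonds are the 3 genes of the tissue-restricted list, bars are medians and the dashed line is the median of all genes with complete peaks, 7.99. COX7A1 and COX6B2 lie well below the median of complex IV.

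Most of the peaks sat on the start sites. The median width of the members' highest peak was 838.5 bp and the median summit lay 52.5 bp upstream of the nearest start, with 82 of 89 summits within 200 bp. NDUFB10 and COX6A1 had median summits 47 and 145 bp upstream, and COX6B2, at 463 bp downstream, was among the 7 others.

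Changes along differentiation were tested with limma on the log2 fold of the highest promoter peak, for all 13663 genes with a peak in every library, each library being centred on its median. The 2 libraries of a stage are separate samples by their labels, which do not say whether they came from separate differentiations, so that the p-values measure the spread between these libraries. From hESC to MES no member was called at an adjusted p of 0.05, against 0.00732% of all genes. From MES to CP none was called either, against 0.0146%, and from CP to CM none, against 0.403%. The numbers of members with an unadjusted p under 0.05 were 2, 5 and 10 of 89, against 784, 889 and 1788 of the 13663 genes. From hESC to CM 1 member was called, and it was higher in CM. In the same contrast 3.91% of all genes were called, 1.24% higher and 2.67% lower in CM. An unadjusted p under 0.05 was found there for 13 of the 89 members, 8 higher and 5 lower. The same held for 2957 of the 13663 genes, 1356 higher and 1601 lower.

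The members as a group moved little. The median log2 change from hESC to CM was 0.028 over the 89 members and 0.016 over all genes tested, and 49 of the 89 estimates were above 0. The range of a member's 4 stage means had a median of 0.203 on the log2 scale, against 0.223 for all genes and a median SD between replicates of 0.109. No member had a range above 1, which 47 of the 13663 genes had. The 95% interval of the change from hESC to CM lay within 1.5-fold in either direction for 83 of the 89 members, and ATP5MC3, COX6B2, NDUFB10, NDUFB8 and UQCRH were among the others.

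NDUFB10, a subunit of the membrane arm of complex I, was the member called. Its folds were 4.77 and 4.69 at the hESC stage, 5.15 and 5.91 at MES, 5.68 and 6.66 at CP, and 5.99 and 7.44 at CM, with means of 4.73 ± 0.06 in hESC and 6.71 ± 1.03 in CM (SD, n = 2). All 6 later libraries were above both hESC libraries, and the log2 change from hESC to CM was 0.54 (SE 0.12, limma adjusted p = 0.0305). The call did not survive leaving out CM replicate 2 (log2 change 0.45, adjusted p = 0.182), nor leaving out either hESC library (adjusted p = 0.149 and 0.158) or either MES library (0.0565 and 0.0559).

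The result depended on the measure. When the pileup at the summit was divided by the mean background of the whole library instead of the local one, NDUFB10 stood at 19.6 and 18.3 at the hESC stage, 18.5 and 22.5 at MES, 18.2 and 21.8 at CP, and 17.8 and 18.4 at CM. The stages overlapped, and the log2 change was 0.12 (SE 0.13, adjusted p = 0.554, 95% interval −0.14 to 0.38). What moved was the local background, which at NDUFB10 was 5.10 and 4.54 times the library mean in hESC and 3.40 and 3.05 times in CM.

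COX6B2 went the other way. With the local background its change from hESC to CM was −0.39 (SE 0.12, adjusted p = 0.0947), and with the mean background it was −0.81 (SE 0.16, adjusted p = 0.00168). On that scale it stood at 17.2 and 19.8 at the hESC stage, 16.7 and 18.4 at MES, 14.1 and 18.3 at CP, and 9.69 and 8.76 at CM. Both CM libraries lay below the 6 others, and the local background there fell too, from 3.89 and 4.07 times the library mean in hESC to 2.83 and 2.45 times in CM. The sum of the folds of all its peaks also fell, by 0.98 on the log2 scale (adjusted p = 0.0482). That sum grows with each peak listed, and the peak across the start was listed only in the hESC libraries. It thus mixes peak height with which weak peaks passed the threshold. Whether the cell mixture of the CM cultures has a part in the lower values of COX6B2 in CM was not tested.

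With the mean background, 8 of the 89 members were called from hESC to CM, against 13.5% of all genes. The members' share in both directions together thus did not exceed the background. By direction, 7 of the 89 were higher and 1 lower, against 806 and 1045 of the 13663 genes. Apart from COX6B2 these 7 were higher in CM, by 0.33 to 0.39 on the log2 scale, against 5.9% of all genes called higher. They were UQCRH, the hinge protein of complex III, UQCRFS1, its iron-sulfur subunit, NDUFA11 of the complex I membrane arm, the complex I assembly factors NDUFAF4 and NDUFAF5, ATP5F1E, the epsilon subunit of ATP synthase, and ATP5PO. With the local background none of the 7 was called (adjusted p from 0.0988 to 0.868), and the changes were 0.38 for UQCRH, 0.27 for NDUFAF4, 0.25 for NDUFAF5, 0.10 for ATP5PO, 0.08 for NDUFA11, −0.03 for UQCRFS1 and −0.09 for ATP5F1E. The median of all genes fell by 0.191 between hESC and CM on this scale, and without centring on it the 7 rises were 0.138 to 0.203 and the change of NDUFB10 was −0.069. From CP to CM, NDUFA8, an accessory subunit of complex I, and UQCRC2, a core subunit of complex III, were called higher by this measure, by 0.58 each, against 0.366% of all genes called higher and 1.76% in either direction. With the local background their changes were 0.31 and 0.20 (adjusted p = 0.405 and 0.409), and on the pileup scale the CP and CM libraries of UQCRC2 overlapped. Members outside the called set were named here after their values were seen.

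**Figure D4:**
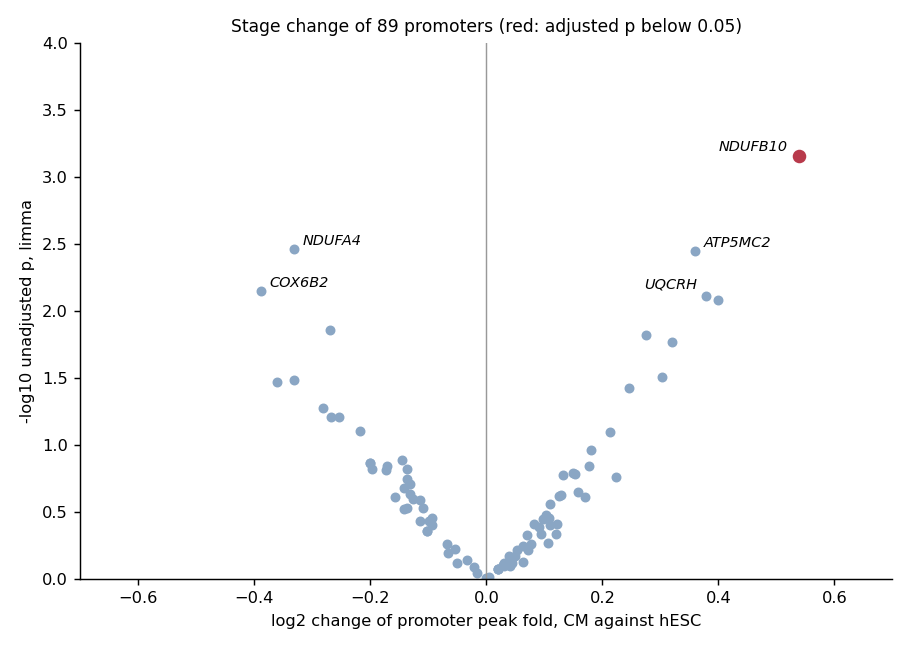
Log2 change of the promoter peak fold from hESC to CM (horizontal axis) against the −log10 unadjusted p of limma (vertical axis) for the 89 members with a peak in all libraries. Each point is a gene and the 5 of lowest p are named. Only NDUFB10, at 0.54, has an adjusted p below 0.05, and no member lies beyond 0.6.

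The members next to NDUFB10 in p missed the threshold and were examined because of that p. ATP5MC2, one of the genes for subunit c of the ATP synthase ring, had folds of 9.45 and 8.54 at the hESC stage, 9.62 and 9.87 at MES, 10.6 and 10.7 at CP, and 10.9 and 11.5 at CM. On this scale its stages followed each other without overlap, with a change of 0.36 from hESC to CM (SE 0.10, adjusted p = 0.0672). By the pileup over the mean background it stood at 28.3 and 26.0 at the hESC stage, 33.0 and 30.6 at MES, 28.2 and 31.6 at CP, and 26.4 and 30.0 at CM, so that the stages overlapped (log2 change 0.24, adjusted p = 0.146). NDUFA4 had a log2 change of −0.33 (SE 0.09, adjusted p = 0.0666), and of −0.11 by the pileup (adjusted p = 0.555). UQCRH had folds of 4.85 and 5.15 in hESC and between 5.95 and 6.67 in the 6 later libraries, a change of 0.38 (SE 0.12, adjusted p = 0.0988).

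**Figure D5:**
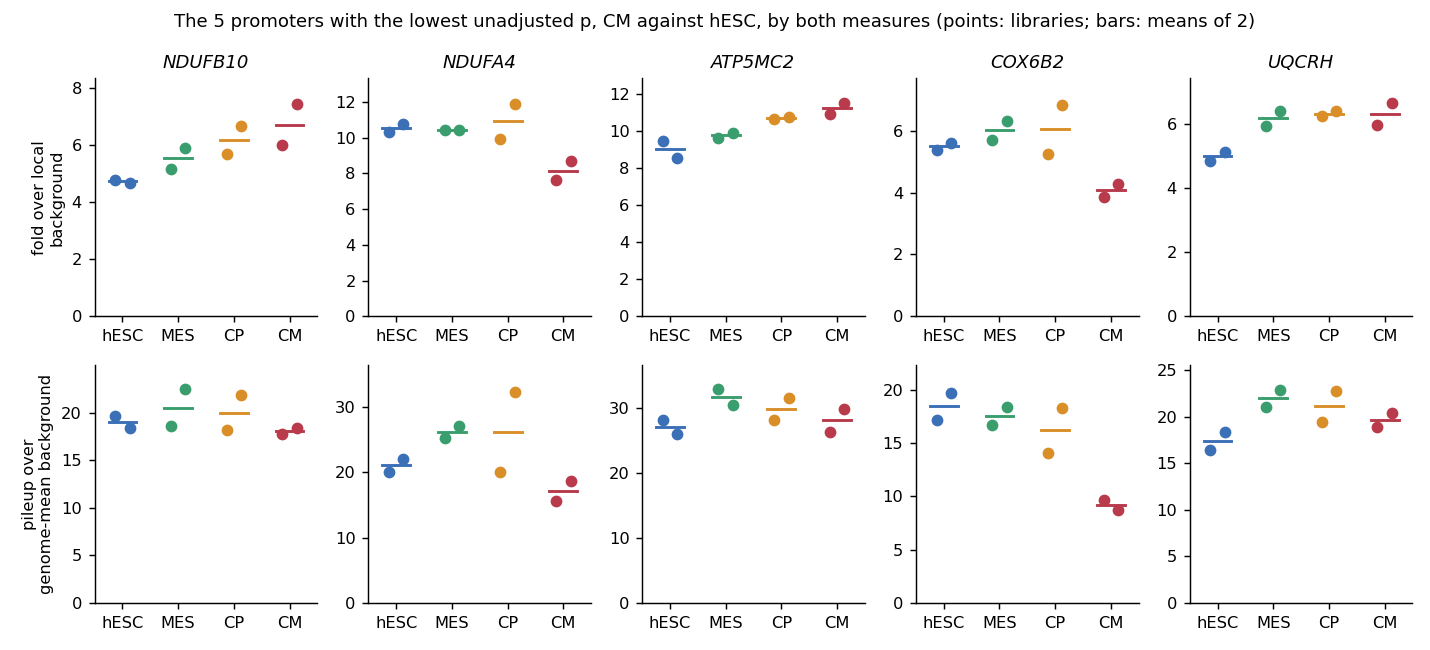
The 5 members of lowest unadjusted p from hESC to CM, by the fold over the local background (top) and by the pileup over the mean background of the library (bottom), against stage. Points are libraries and bars are means of 2. The mean of NDUFB10 is 4.73 in hESC and 6.71 in CM at the top, with a CM library below one of CP, and its libraries stay between 17.8 and 22.5 at the bottom, while COX6B2 is lowest in CM in both.

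Including members with missing peaks, with the missing value set to the lowest fold listed in that library, 91 members and 15933 genes were tested. NDUFB10 remained the member called from hESC to CM (adjusted p = 0.0442), against 4.04% of all genes, and no member was called between neighbouring stages. The estimate for COX4I2 was −0.03 (SE 0.44, adjusted p = 0.976, 95% interval −1.03 to 0.96). COX8C and UQCRHL, each with a peak in a single library, were not tested.

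As a description over the 8 libraries, which differ in depth and list length, the members whose log2 fold followed that of COX7A1 most closely were ATP5MJ (Pearson r = 0.922), COX6A1 (0.804), COX7A2 (0.777), NDUFV2 (0.761) and UQCRC1 (0.745). For COX6A2, with its 5 missing values at the floor, they were COX6C (0.897), NDUFV2 (0.731), NDUFS5 (0.624), ATP5F1C (0.558) and NDUFB4 (0.553). With so few measured values, the latter follow mainly which libraries had a peak of COX6A2, and the lists of the 2 genes are not compared.

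Some of these promoters were shared with a neighbour. A start site of another protein-coding gene on the opposite strand lay within 1 kb of the canonical start for 22 of the 96 members (22.9%), against 9.45% of all genes and 34.6% of the 78 mitochondrial ribosome genes. Among genes with complete peaks the shares were 24.7% and 12.8%. ATP5PF, the coupling factor 6 of ATP synthase, began 68 bp from GABPA, which encodes an ETS-family activator of respiratory genes. COX4I1 began 151 bp from EMC8, UQCRH 82 bp from LRRC41, NDUFAF5 109 bp from ESF1 and NDUFA8 129 bp from MORN5. A peak at such a promoter cannot be assigned to either gene.

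Consensus sequences were searched in the 250 bases before to 50 after the RefSeq start, on both strands, for the 69 members whose RefSeq start lay within 100 bp of the canonical start. The shares below are given beside those of all 12455 promoters that met the same condition. NRF1, a regulator of respiratory genes (GCGCANGC, N being any base), matched 43.5% of the members and 18.1% of all. The ETS consensus CCGGAAG matched 27.5% and 15.7%, YY1 (AAGATGGC) 14.5% and 4.35%, and the estrogen-related receptor consensus AAGGTCA 11.6% and 3.00%. The SP consensus GGGCGG matched 60.9% and 62.3%, and the E-box CAGCTG matched 20.3% and 17.8%. The letters AGATAA of the blood and heart GATA factors matched 7.25% and 7.29%, and the TATA box TATAAA matched 7.25% and 9.86%. The MEF2 consensus AAAAATAG matched no member and 0.779% of all promoters. At so low a share the absence of a match among 69 promoters says little. These letters are only one form of that site, and other forms were not searched. Among promoters of genes with complete peaks, 66 of members and 9082 of all, the shares were 43.9% and 23.3% for NRF1, 28.8% and 20.2% for ETS, 15.2% and 5.67% for YY1, 12.1% and 2.15% for the estrogen-related receptor, 63.6% and 75.5% for SP, 18.2% and 16.6% for the E-box, 7.58% and 4.24% for GATA and 6.06% and 5.11% for the TATA box. Against these promoters the gap was thus smaller for NRF1 and ETS, slightly smaller for YY1 and the E-box, and wider for the estrogen-related receptor. The SP share of the members was the lower. Their GATA and TATA shares, from 5 and 4 of the 66 promoters, were slightly the higher. None of the 9 strings contains another, and a match is not a bound site.

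The 64 mitochondrial ribosome promoters differed in the mix, with YY1 in 31.2%, ETS in 45.3% and NRF1 in 32.8%. Of the 5 tissue-restricted genes with a usable promoter, COX6A2 held a TATA match and an E-box and none of NRF1, ETS, YY1 or SP. Its TATA match was not among the matches in the bases printed above and is not read as a working TATA box. Over the 300 bases its GC content was 52.0% and its observed-to-expected CpG ratio 0.247, whereas COX6A1 had 58.7% and 0.868, and the medians were 61.3% and 0.846 over the members. COX8A held ETS, ERR and SP matches, and COX6B2 NRF1 and SP. A CpG ratio over 0.6 was found in 64 of the 69 members and in 8742 of the 12455 promoters, and with complete peaks in 64 of 66 and 8150 of 9082.

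Genes that act with these members also had promoter peaks in most libraries. All 16 regulators of mitochondrial gene expression examined, among them PPARGC1A, NRF1, GABPA and TFAM, had a promoter peak in all libraries, and none was called in any of the 4 contrasts. Of 22 factors of cytochrome oxidase assembly, all had peaks in all libraries, and from hESC to CM 1 was higher and 3 were lower, against 1.24% and 2.67% of all genes. These were named after their values were seen: COX20 was higher by 0.48, and COX19, COA3 and COA5 changed by −0.58, −0.75 and −0.48. Their limma adjusted p-values were 0.0339, 0.0246, 0.0224 and 0.0374 in that order. In the fit that included genes with missing peaks, COA5 was not called (adjusted p = 0.0503). Their values with the mean background or with a library left out are not reported here. Of 7 genes for cytochrome c, phosphate and ADP/ATP carriers and mitochondrial creatine kinases, 4 had peaks in all libraries and none was called. The germ cell carrier SLC25A31 had a peak in hESC replicate 2 (4.61-fold) and MES replicate 1 (4.26-fold). CKMT1A and CKMT1B, near-identical copies whose reads may not be placed uniquely, had none, and CKMT2, the muscle form of the kinase, had peaks of 6.27-fold to 8.93-fold in all 8 libraries, hESC included.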

How the data were processed

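ATAC-seq libraries of RUES2 cells (8 in all) were analysed from their peak lists. According to the methods, the authors aligned reads to hg38 with BWA-MEM (0.7.13), retained primary alignments of mapping quality over 30, discarded duplicates (Picard) and ran MACS2 on each library (2.1.0, no model, q of 0.01, shift of 100 bp against the read, extension of 200 bp). The deposited lists give for each peak the fold of pileup over local background (a ratio) and the −log10 p-value and q-value, from which pileup and background were recovered. They hold no counts, so read depth is not known beyond that background, and a missing peak is a peak under the threshold.

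Peaks within 1 kb of GENCODE 44 start sites were assigned to autosomal protein-coding genes. Fits used limma (3.58.1, R 4.3.3) with a variance trend, Benjamini-Hochberg adjustment over all genes, two-sided tests and a threshold of 0.05, and were tested on simulated data. Python 3.11.15, pandas 2.3.3 and scipy 1.17.1 were used. Promoter sequences came from RefSeq (GRCh38.p14), which held 75 of the 96 members, 69 of them within 100 bp of the canonical start. The members and gene lists were chosen with earlier results of these data known, and COX8A's place on the list follows that choice. Named are the tissue-restricted genes and counterparts, retrocopies, members lacking peaks, called members, the 3 highest and the 3 lowest, and regulators or carriers that were called or lacked a peak. Other members are said to be named after their values were seen, and 1 member that was counted is not described here. Alternatives varied the window, start sites, summit rule, threshold, list length, measure, normalization, variance trend, value of missing peaks, gene list, replicate block and libraries. The study's Hi-C and RNA-seq data were not used.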

Additional observations from a re-analysis of the deposited data

How the results depend on the processing

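The number of members with a promoter peak in both libraries of a stage, or in all 8, stayed within 1.5 times its value under every window, start site, summit, threshold and list length tried, and without CM replicate 2. For the tissue-restricted genes it fell from 4 to 2 in MES with lists of equal length, and ranged from 3 to 6 in hESC with a single library. The latter, and the removal of a library from the other counts of peaks, were alternatives chosen after seeing the data.

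The count of members called was less stable. From hESC to CM it was 1 in the fit as reported, 8 with the pileup over the mean background, 0 without normalization and 0 to 3 with a library left out: 0 without either hESC library, either MES library or CM replicate 2, 2 without either CP library (NDUFB10 and ATP5MC2, against 5.41% and 5.5% of all genes) and 3 without CM replicate 1 (NDUFB10 higher, SDHC and ATP5MC3 lower, against 4.01%). These shares of the members did not exceed those of all genes. In the fit as reported 3.91% of all genes were called, with the pileup 13.5%, and without normalization 1.52%. The sum of folds called 1 member, COX6B2 in place of NDUFB10, against 0.637% of all genes. From CP to CM the count was 2 with the pileup measure, against 1.76% of all genes. The counts from CP to CM and from MES to CP also varied when a library was left out. With missing peaks at the lowest fold listed, the count from hESC to CM was 1, and with missing peaks at a fold of 1 it was 0. Of all genes, 4.04% and 2.8% were called in these fits. When a library was left out, this count varied too, as did those from CP to CM and from MES to CP. The replicate block left 1 call (NDUFB10) among complete members and 0 with missing peaks included, against 3.69% and 3.12% of all genes. Libraries with the same number did not deviate together (correlations from −0.189 to 0.156 between stages), so the numbers were not read as pairs. In the simulation of the hESC to CM comparison, most changes of 0.5 on the log2 scale were called at this number of libraries. It gave every gene the same spread, which real genes do not share, so changes of this size and smaller ones may be missed. PPARGC1A, for example, had an estimate of 0.51 from hESC to CM that was not called (limma adjusted p = 0.168).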
